A study of Homo sapiens with 3 samples.

Results

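The 9 genes described here are the main transcription factors of the epithelial to mesenchymal transition (EMT), the cadherins that this transition exchanges, and vimentin. They were taken by symbol from the 50868 genes of the deposited counts: SNAI1, SNAI2, TWIST1, TWIST2, ZEB1, ZEB2, CDH1, CDH2 and VIM. All 9 were present, each as 1 row, and all 9 passed the filter on low counts, as part of 17287 genes tested. Each reached the filter's limit for a single library in the control, CDH2 just at it with 10 counts. The filter also asks for a minimum total over the libraries, which CDH2 met only together with its knockdown counts. The cells were NCI-H23, an established human lung adenocarcinoma line, labelled as control (1 library, titled NC) or as USP16 knockdown by siRNA (2 libraries, called knockdown library 1 and knockdown library 2 after their labels). USP16 encodes a deubiquitinase whose known substrate is histone H2A, and the design asks which transcripts differ when it is knocked down. All libraries are of the same line. The labels give no siRNA sequence, dose or time after transfection, do not say how the control was treated, and do not say whether the numbers mark different siRNAs or different cultures. The p-values therefore reflect the spread between these libraries alone, and that spread may be technical.

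In EMT, epithelial cells loosen their contacts and take on a motile form. SNAI1 and SNAI2 (zinc finger proteins), ZEB1 and ZEB2 (zinc finger and homeodomain proteins) and TWIST1 and TWIST2 (basic helix-loop-helix proteins) bind E-box sequences, and the SNAI and ZEB factors are known to repress CDH1. CDH1 encodes E-cadherin, the adhesion molecule of epithelial adherens junctions, CDH2 encodes N-cadherin, its counterpart in mesenchymal and neural cells, and VIM encodes the intermediate filament of mesenchymal cells. Many carcinoma lines hold a mixture of these genes.

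TWIST1 and TWIST2 are the closest paralogs among these genes, and whether their reads can be told apart bears on the TWIST2 values below. Their coding sequences were identical at 85.8% of 480 aligned bases, against 67.6% for SNAI1 and SNAI2 and 66.6% for ZEB1 and ZEB2. The most similar 150 bases, with 10 mismatches shown in capitals, are given 5′ to 3′ from GENCODE 29 transcripts, for bases 335 to 484 of the TWIST1 coding sequence and bases 209 to 358 of that of TWIST2.
TWIST1: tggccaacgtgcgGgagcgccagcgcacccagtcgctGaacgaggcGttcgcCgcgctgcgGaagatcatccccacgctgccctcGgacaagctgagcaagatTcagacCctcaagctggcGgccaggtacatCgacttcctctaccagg
TWIST2: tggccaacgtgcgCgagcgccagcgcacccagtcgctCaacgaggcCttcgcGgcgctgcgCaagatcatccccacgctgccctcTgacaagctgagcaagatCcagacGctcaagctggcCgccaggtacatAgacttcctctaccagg
The longest run without a mismatch in the aligned coding sequences was 23 bases. Over all GENCODE 29 transcripts, 0 of the 50-base words of SNAI1, SNAI2, TWIST1, TWIST2, ZEB1 and CDH2 occurred in another gene. ZEB2 shared 0.329% of its words, all with the pseudogene ZEB2P1, CDH1 0.261% and VIM 0.173%.

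Sequence upstream of transcription starts is shown for TWIST2 and VIM, the members at least 2-fold lower in library 2, and for ZEB1, the member higher in both libraries, from the RefSeq promoter table (build GRCh38.p14). These were chosen after their values were seen. Capitals mark the E-box words CAGGTG and CACCTG, which are reverse complements of each other and were searched on both strands in the 250 bases before each start. Of all 35116 promoters in that table, 17.5% hold at least 1 of these words there.
ZEB1, chr10:31318966-31319149, plus strand: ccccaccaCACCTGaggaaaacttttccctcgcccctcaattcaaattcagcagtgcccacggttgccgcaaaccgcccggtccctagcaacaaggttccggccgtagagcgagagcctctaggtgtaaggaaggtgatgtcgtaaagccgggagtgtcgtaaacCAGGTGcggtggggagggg
TWIST2, chr2:238847835-238848031, plus strand: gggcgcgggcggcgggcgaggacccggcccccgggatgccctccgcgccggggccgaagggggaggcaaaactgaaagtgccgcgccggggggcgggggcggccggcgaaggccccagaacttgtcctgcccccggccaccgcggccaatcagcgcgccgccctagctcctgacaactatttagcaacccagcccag
VIM, chr10:17227991-17228240, plus strand: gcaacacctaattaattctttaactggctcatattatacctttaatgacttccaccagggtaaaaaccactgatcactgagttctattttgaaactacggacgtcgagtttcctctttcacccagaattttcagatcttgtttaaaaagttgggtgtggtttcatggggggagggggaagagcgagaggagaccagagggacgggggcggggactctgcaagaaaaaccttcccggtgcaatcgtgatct
The ZEB1 stretch holds 2 of the words and overlaps the window before a ZEB1-AS1 start. It was printed because it holds the most words among the windows of the 7 ZEB1 starts in the table, of which 1 other holds 1 word and the rest hold 0. The stretches of TWIST2 and VIM hold 0, as do the windows of ZEB2 and CDH2. A match of this kind describes the sequence and is no evidence of binding.

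USP16 had 632 counts in the control, 109 in knockdown library 1 and 245 in knockdown library 2. Its level was 0.162 of the control level in library 1 and 0.332 in library 2, so the libraries differed in the depth of the knockdown. The libraries held 13956382 to 15071179 counts. The mitochondrial share was 8.56% in the control, 7.41% in library 1 and 7.33% in library 2. Library 2 stood apart by more genes than library 1: 4.46% of tested genes were at least 2-fold lower there than in both other libraries, against 2.48% in library 1. Levels are given below in CPM, a library-size scale that includes TMM factors, with exact Poisson 95% intervals. Levels relative to the control are ratios of these, with exact binomial 95% intervals. Both intervals cover counting error only. A difference beyond counting error can still be of ordinary size among all tested genes. The keratins KRT8 and KRT18, markers of epithelium, had 2214 and 2903 counts in the control, 1118 and 1986 in library 1 and 1880 and 3364 in library 2. The epithelial markers KRT19, KRT7 and EPCAM were low in the control, with 62, 81 and 38 counts. Not all epithelial genes were low there, as CLDN1 had 4829 counts and PERP 8899. Of the 6 tested markers of lung adenocarcinoma and epithelium, 5 were lower in both libraries and EPCAM was higher. Over all tested genes, 33.5% were lower and 33.4% higher in both. Among the 5, KRT18 was near the control in library 2 (log2 change -0.01) and NAPSA in library 1 (-0.08). The lung lineage factor NKX2-1 had 6, 4 and 10 counts in the control and knockdown libraries 1 and 2, and the surfactant genes SFTPA1, SFTPB and SFTPC had 0 in all 3 libraries. Among the 5 endothelial markers the summed counts were 6, 8 and 12, and those of the 6 immune markers 170, 271 and 192, mostly CD68 and CD14, with PTPRC at 0, 0 and 1. Those of the 7 fibroblast markers were 1051, 1078 and 1041, mostly from COL1A1 (918, 881 and 700), with DCN at 0, 2 and 2. Within that list LUM had 20, 26 and 140 counts and COL3A1 19, 67 and 94, both above the control in each knockdown library, and their part in the results was not tested. In bulk RNA, fewer cells that express a gene and less RNA per cell cannot be told apart.

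No member passed the test. With edgeR's quasi-likelihood test over all genes, 0 of the 9 members had an adjusted p under 0.05 in either direction, where 0.0% of all tested genes were called higher and 0.0174% lower. TWIST2 alone had an unadjusted p under 0.05 with edgeR, which 4.88% of all tested genes had, and it alone had one with DESeq2 as well (1.82% of all genes). DESeq2 also called 0 members after adjustment, against 0.0472% of all genes. The test had 1 residual degree of freedom, since there was only 1 control library. USP16, the target of the knockdown, did not pass either, with adjusted p-values of 0.561 (edgeR) and 0.625 (DESeq2). A gene that did not pass is thus not shown to be unchanged. By size alone, 1 member, TWIST2, lay at or beyond a 2-fold decrease in each knockdown library, where 1.68% of tested genes did, and 0 lay beyond a 2-fold increase in each, where 3.75% of genes did. In library 1, 2 members (CDH1 and TWIST2) were at least 2-fold lower, against 5.55% of tested genes, and 0 were higher, against 7.05%. In library 2, 2 members (VIM and TWIST2) were at least 2-fold lower, against 8.97% of genes, and 0 were higher, against 9.94%. By sign alone, 6 members were lower in both libraries (with a minimum mean of 100 counts, which only SNAI1, TWIST1, TWIST2, ZEB1 and VIM met, SNAI1 was at 0.01 in library 2), 1 (ZEB1) was higher in both and 2 (SNAI2 and CDH2) went opposite ways, while each of these classes held near 33% of all tested genes (33.5%, 33.4% and 33.1%). The 2 comparisons share the control, so equal signs do not stand for independent results. The median log2 change of the members was -0.15 in library 1 and -0.46 in library 2, against 0.00 in both libraries over all genes.

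**Figure D1:**
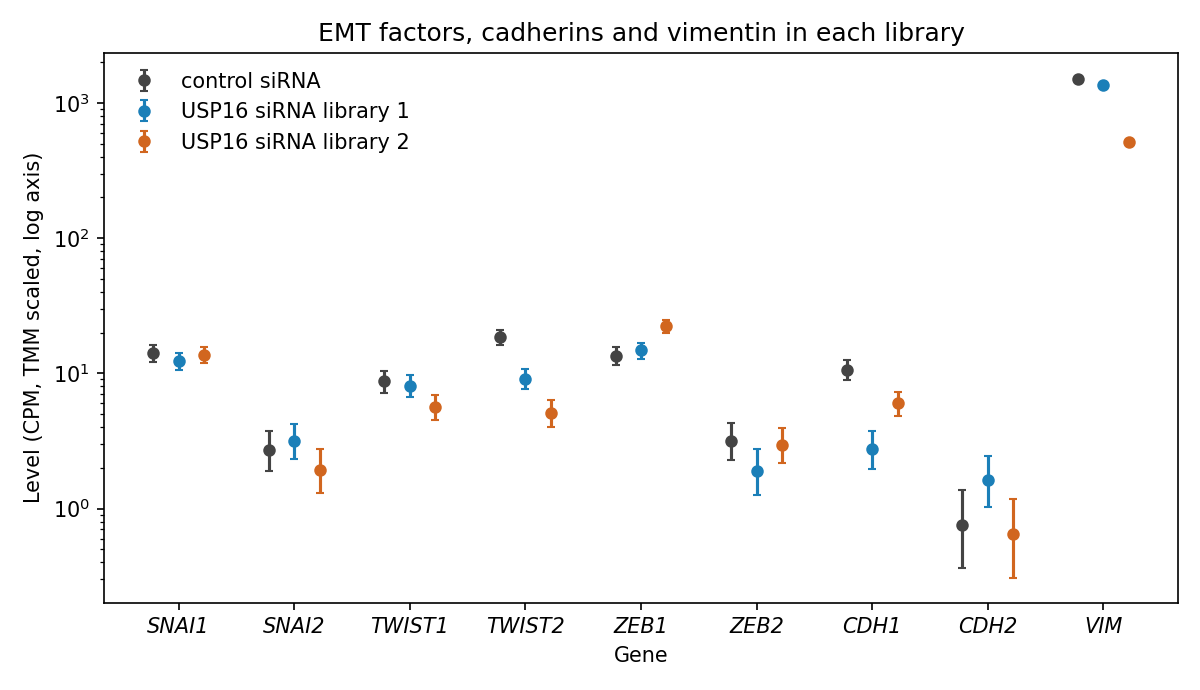
Level of each of the 9 genes in CPM (log axis) in the control and in knockdown libraries 1 and 2, with exact Poisson 95% intervals as bars. VIM lies far above the others in every library, and CDH2 has the widest intervals. TWIST2, CDH1 and VIM have both knockdown intervals under that of the control. The legend calls the control "control siRNA", but the labels do not say how it was treated.

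Per length, VIM was the most abundant member in all 3 libraries, and ZEB2 and CDH2 had the lowest values. On the TPM scale (counts divided by the length of all annotated exons, then scaled to the same total in each library), the control held VIM at 819, TWIST2 at 27.7, SNAI1 at 23.5 and TWIST1 at 12.0. CDH1 followed at 4.84, ZEB1 at 4.36, SNAI2 at 2.23, CDH2 at 0.425 and ZEB2 at 0.353. In this order, the counting intervals of the ratio included 1 for 3 neighbouring pairs, TWIST2 over SNAI1 (1.18, 0.972 to 1.43), CDH1 over ZEB1 (1.11, 0.885 to 1.39) and CDH2 over ZEB2 (1.21, 0.539 to 2.44). The ZEB2 value rests on a combined exon length of 25058 bases from 48 annotated transcripts, which lowers its TPM if few of these exons are used. In knockdown library 1, SNAI1 stood second at 22.6 TPM and CDH1 stood behind SNAI2 at 1.38. In knockdown library 2, TWIST1 at 8.80, TWIST2 at 8.65 and ZEB1 at 8.23 could not be ordered, as the ratios of neighbours were 1.02 (0.742 to 1.40) and 1.05 (0.813 to 1.35). CDH2 over ZEB2 was 1.10 there (0.495 to 2.21), and in library 1 it was 4.31 (2.36 to 7.81). The NCI-H23 control thus held VIM, 5 of the factors and CDH1 above 1 TPM, and CDH2 and ZEB2 below it.

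The SNAI pair showed no change that exceeded counting error against the control. SNAI1, on chromosome 20 at positions 49982999 to 49988886 (hg38, plus strand), had 188 counts in the control, 174 in knockdown library 1 and 213 in knockdown library 2. Its level was 14.1 CPM in the control (12.2 to 16.3), 12.3 in library 1 (10.5 to 14.2) and 13.7 in library 2 (11.9 to 15.7). These are the most even values of the 9 genes, the log2 change averaging -0.12 ± 0.11 (SD, n = 2). SNAI2, on chromosome 8 at positions 48917604 to 48921740 (minus strand), had 36, 45 and 30 counts, or 2.70, 3.17 and 1.93 CPM. Its level was 1.17 of the control in library 1 (0.741 to 1.87) and 0.713 in library 2 (0.424 to 1.19), so the control lay between the knockdown libraries. SNAI1 exceeded SNAI2 per length by 10.5-fold in the control (7.32 to 15.5), 7.78-fold in library 1 (5.58 to 11.1) and 14.3-fold in library 2 (9.72 to 21.7).

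TWIST2 was lower in both knockdown libraries, and TWIST1 was near the control in library 1. TWIST2, on chromosome 2 at positions 238848032 to 238910543 (plus strand), had 247 counts in the control, 129 in knockdown library 1 and 79 in knockdown library 2. The level was 18.6 CPM in the control (16.3 to 21.0), 9.10 in library 1 (7.60 to 10.8) and 5.08 in library 2 (4.02 to 6.33), so both knockdown intervals lay below that of the control and did not overlap each other. Relative to the control it stood at 0.491 (0.393 to 0.609) and 0.274 (0.210 to 0.354), with log2 changes of -1.02 and -1.84 and a mean of -1.43 ± 0.58 (SD, n = 2). The library 1 value lies just past the 2-fold mark, and with a prior count of 10 in place of 2 it was -0.97, so that 0 members met the 2-fold rule. DESeq2 estimated a log2 change of -1.39 with a standard error of 0.67 (unadjusted p = 0.0389), and edgeR gave an unadjusted p of 0.0233 and an adjusted p of 0.999. TWIST2 was lower in library 2 than in library 1 (0.558 of its level, 0.416 to 0.744), while USP16 was lower in library 1. A relation between these levels was not tested.

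TWIST1, on chromosome 7 at positions 19020991 to 19117672 (minus strand), had 116, 114 and 87 counts. Its level was 8.71 CPM in the control, 8.04 in library 1 and 5.59 in library 2, and the ratios to the control were 0.923 (0.707 to 1.21) and 0.642 (0.481 to 0.855). In library 1 the difference was within counting error, and in library 2 it was not. The library 2 change of TWIST1 lay at percentile 18.5 of all tested genes. Per length, TWIST2 exceeded TWIST1 by 2.31-fold in the control (1.84 to 2.90), while in libraries 1 and 2 the ratio was 1.23 (0.945 to 1.59) and 0.983 (0.716 to 1.35). The interval thus included equal levels in both knockdown libraries and not in the control. As the search for 50-base words above shows, no identical stretch of 50 bases links TWIST1 and TWIST2. However, the sources used here give neither the read length nor the treatment of reads that match several genes.

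ZEB1 was the only member higher in both knockdown libraries, and only in library 2 did this exceed counting error. ZEB1, on chromosome 10 at positions 31318495 to 31529814 (plus strand), had 179 counts in the control, 209 in knockdown library 1 and 346 in knockdown library 2. The level was 13.4 CPM in the control (11.5 to 15.6), 14.7 in library 1 (12.8 to 16.9) and 22.2 in library 2 (19.96 to 24.7), which gives ratios of 1.10 (0.894 to 1.35) and 1.65 (1.38 to 1.99). The mean log2 change was 0.43 ± 0.42 (SD, n = 2; edgeR adjusted p = 0.999). In library 2 the change of ZEB1 lay at percentile 84.0 of all tested genes. ZEB2, on chromosome 2 at positions 144364364 to 144524583 (minus strand), had 42, 27 and 46 counts. Its ratios were 0.604 (0.358 to 1.00) and 0.938 (0.604 to 1.46), so in library 2 no difference was detectable at this depth and library 1 lay at the edge of counting error. ZEB1 exceeded ZEB2 per length by 12.3-fold in the control (8.78 to 17.7), 22.4-fold in library 1 (14.98 to 34.8) and 21.8-fold in library 2 (16.0 to 30.3). These ratios rest on combined exon lengths of 8650 bases for ZEB1 and 25058 for ZEB2. They are too high if few of the ZEB2 exons are used, which the intervals do not cover. Summed over the 6 factors, the counts were 808, 698 and 801, or 60.7, 49.2 and 51.5 CPM.

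CDH1 was lower in both knockdown libraries, most in library 1, and CDH2 was close to the limit of detection. CDH1, on chromosome 16 at positions 68737225 to 68835548 (plus strand), had 142 counts in the control, 39 in knockdown library 1 and 93 in knockdown library 2. The level was 10.7 CPM in the control (8.98 to 12.6), 2.75 in library 1 (1.96 to 3.76) and 5.98 in library 2 (4.83 to 7.33), and the 3 intervals did not overlap. The ratios to the control were 0.258 (0.176 to 0.370) and 0.561 (0.427 to 0.733). Its mean log2 change was -1.36 ± 0.76 (SD, n = 2), with -1.90 in library 1 and -0.82 in library 2. In library 1 the change lay at percentile 0.868 of all tested genes and in library 2 at percentile 12.7. DESeq2 estimated -1.28 with a standard error of 0.78, and edgeR gave an unadjusted p of 0.0525 (adjusted p = 0.999). CDH1 was at least 2-fold lower in library 1 than in both other libraries, as were 2.48% of tested genes. The lower CDH1 level was found in the library with the stronger reduction of USP16, the reverse of the order seen for TWIST2. With 2 knockdown libraries, any gene that differs between them follows either order. A relation to the USP16 level was not tested.

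CDH2, on chromosome 18 at positions 27950966 to 28177446 (minus strand), had 10, 23 and 10 counts, or 0.751 CPM in the control (0.360 to 1.38), 1.62 in library 1 (1.03 to 2.43) and 0.643 in library 2 (0.308 to 1.18). The ratio in library 1 was 2.16 (0.989 to 5.09) and in library 2 it was 0.856 (0.320 to 2.29), so neither difference was detectable at this depth. Per length, CDH1 exceeded CDH2 by 11.4-fold in the control (6.01 to 24.2) and by 7.45-fold in library 2 (3.88 to 16.1). In library 1 the ratio was 1.36 (0.792 to 2.38), an interval that includes equal levels and does not overlap those of the other libraries. That ratio combines 39 counts of CDH1 with 23 of CDH2.

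VIM was lower mainly in knockdown library 2. VIM, on chromosome 10 at positions 17228259 to 17237593 (plus strand), had 20066 counts in the control, 19284 in knockdown library 1 and 7957 in knockdown library 2. Its level was 1507 CPM, 1361 and 512, and the control level lay at percentile 99.8 of all tested genes. The ratio was 0.903 in library 1 (0.885 to 0.921) and 0.339 in library 2 (0.331 to 0.348). Counting error is small at these counts, and the knockdown libraries differed from each other by more than counting error: library 2 had 0.376 of the library 1 level (0.366 to 0.386). The mean log2 change of -0.85 ± 1.00 (SD, n = 2) therefore describes neither library, and edgeR gave an unadjusted p of 0.171 (adjusted p = 0.999). VIM was among the 4.46% of genes at least 2-fold lower in library 2 than in both other libraries. Without library 2 its log2 change is -0.15, and without library 1 it is -1.56.

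**Figure D2:**
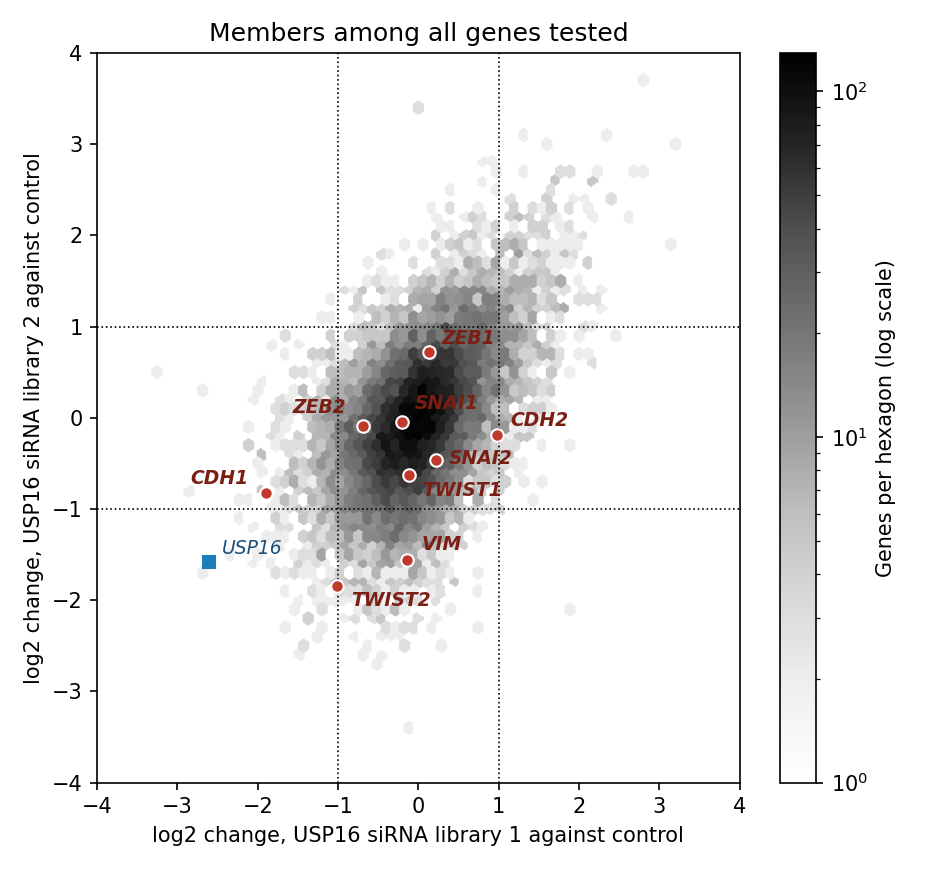
Each red point is one of the 9 genes, placed by its log2 change against the control in knockdown library 1 (horizontal axis) and knockdown library 2 (vertical axis); grey hexagons show the number of tested genes on a log scale, the blue square is USP16 and dotted lines mark 2-fold. TWIST2 alone lies beyond both lower lines, CDH1 passes the line of library 1 only and VIM that of library 2 only; 32 genes lie beyond the axes.

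The antisense genes at ZEB1 and VIM were both above the control in library 2, where ZEB1 was also above it and VIM below it. ZEB1-AS1, a noncoding RNA transcribed from the minus strand on chromosome 10 between positions 31206278 and 31320447, overlaps the ZEB1 exons by 366 bases. It had 61 counts in the control, 54 in knockdown library 1 and 140 in knockdown library 2, with ratios of 0.832 (0.566 to 1.22) and 1.96 (1.44 to 2.70). ZEB1-AS1 was thus high in the same library as ZEB1, and the ZEB1 promoter stretch printed above lies within the span of both genes. VIM-AS1, on the minus strand between positions 17214239 and 17229985, overlaps the VIM exons by 641 bases. It had 59, 37 and 118 counts, and its ratios were 0.589 (0.380 to 0.904) in library 1 and 1.71 (1.24 to 2.38) in library 2. VIM-AS1 was thus highest in the library in which VIM was lowest. The sources used here do not say whether counting used strand, so the reads of overlapping exons cannot be assigned to a strand with certainty. Neither antisense gene passed (edgeR adjusted p = 0.999 for ZEB1-AS1 and for VIM-AS1), and ZEB2-AS1 had 0, 0 and 1 counts. CDH1, CDH2 and TWIST1 also overlap an antisense gene, by 347, 136 and 141 exon bases.

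**Figure D3:**
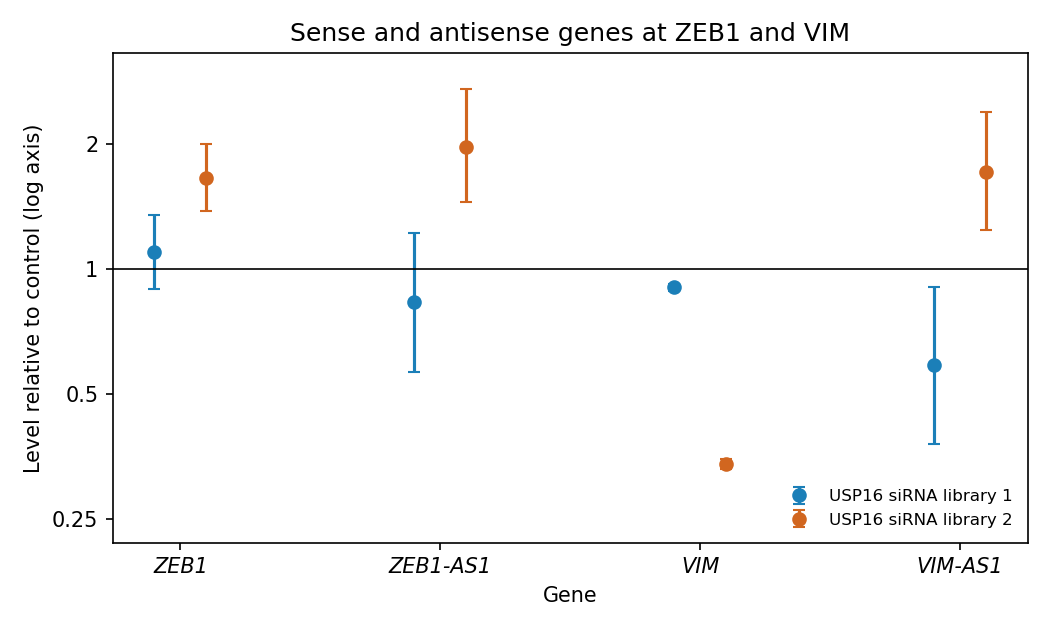
Level relative to the control (log axis) of ZEB1, VIM and their antisense genes in knockdown libraries 1 and 2, with exact binomial 95% intervals as bars and a line at the control level of 1. In library 2, ZEB1 and ZEB1-AS1 both lie above the line, whereas VIM lies below it and VIM-AS1 above it.

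Genes whose pair of log2 changes lay nearest to those of a member were sought for the 3 members with the highest counts, among 11235 other genes whose mean count was 100 or more. For VIM these were MEX3B (219, 204 and 87 counts), PIK3CD (344, 334 and 140) and EFEMP1 (985, 988 and 394), at distances of 0.05 to 0.06 on the log2 scale, and 77 genes lay within 0.25. For ZEB1 they were HNRNPDL (2501, 2935 and 4822 counts), CRYBB2P1 and TSSC1, with 490 genes within 0.25. For SNAI1 they were GABBR1, RPS29 and RCN1, with 1359 genes within 0.25. Likeness over 3 libraries is a loose measure, as these numbers of neighbours show.

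Partner genes of the factors were mixed in direction. The shares over all tested genes, against which each list below is to be read, were 33.5% lower and 33.4% higher in both libraries. The lists were chosen with earlier results of these data known, so no share given for a list is a test of it. Of 15 other transcription factors that can drive EMT, 12 were tested, 2 were higher and 5 lower in both libraries, 0 lay beyond 2-fold in both, and the medians were -0.08 and -0.38. KLF8, a Kruppel-like factor, had 12, 25 and 33 counts. The E-box factor TCF3, which pairs with TWIST proteins, had 648, 1262 and 1094 counts (log2 changes 0.87 and 0.53), and its relative TCF4 had 152, 81 and 123 (-0.98 and -0.52). The paralog SNAI3 had 0, 8 and 0 counts. Of 32 corepressors, inhibitors and turnover factors, 9 lay above and 16 below the control in each library, the medians being -0.26 and -0.10, and 0 beyond 2-fold in both. HDAC1, a histone deacetylase recruited by the SNAI and ZEB factors, had 1581, 2841 and 3857 counts (0.75 and 1.06). BTRC, a ubiquitin ligase subunit that marks SNAI1 for destruction, had 1142, 761 and 601 (-0.67 and -1.15). ID4, an inhibitor of basic helix-loop-helix factors, had 605, 957 and 1799 (0.57 and 1.35), and LIMD1, a LIM domain protein, 1088, 877 and 436 (-0.40 and -1.54). No gene of either list passed the test (edgeR adjusted p over all genes), 1 gene, HDAC1, had an unadjusted p under 0.05, and DESeq2 called 0.

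The genes listed for the adherens junction, which were catenins, nectins and others, had a median below the control in both libraries. Of 13 tested, 9 lay below and 1 above the control in each library, the medians being -0.72 in library 1 and -0.24 in library 2, where 33.5% of all tested genes were lower and 33.4% higher in both and the medians of all genes were 0.00. The catenins bind the cadherin tail: CTNNB1 (beta-catenin) had 3141, 2028 and 3115 counts, CTNND1 (p120) 1596, 880 and 1715, and CTNNA1 (alpha-catenin) 5923, 5674 and 7281. CTNNB1 and CTNND1 were thus lowest in library 1, as CDH1 was, with log2 changes there of -0.72 and -0.95. The nectins are adhesion molecules of the same junctions, and NECTIN1, listed under its older symbol PVRL1, was the 1 gene beyond 2-fold in both, with 1191, 631 and 497 counts (-1.0044 and -1.48, edgeR adjusted p = 0.953). NECTIN2 (listed as PVRL2) had 1690, 973 and 856 counts. ARVCF, another catenin, had 144, 111 and 49, and the phosphatase gene PTPN14 2254, 1586 and 1054, both lowest in library 2. With edgeR 0 genes of the list passed, 3 of 13 had an unadjusted p under 0.05, as had 4.88% of all tested genes, and DESeq2 called 0.

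Other cadherins lay on both sides of the control. Of 25 listed, 15 were tested, 6 were higher and 4 lower in both libraries, and the medians were 0.29 and -0.04. CDH3, which encodes P-cadherin and neighbours CDH1 on chromosome 16, had 34, 59 and 168 counts (log2 changes 0.68 and 2.02), opposite in sign to CDH1 in both libraries. CDH10 had 60, 100 and 122 counts, CDH26 28, 44 and 70, and CDH24 357, 309 and 173. CDH9, with 2, 11 and 9 counts, was the 1 gene at least 2-fold higher in both, and it passed the filter only through the knockdown libraries. With edgeR 0 of these genes passed and 0 had an unadjusted p under 0.05, and DESeq2 called 0.

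Epithelial and mesenchymal genes lay on both sides of the control within each list. Of 30 epithelial genes tested, 12 lay above and 11 below the control in each library, the medians being -0.06 and 0.10. EPCAM, an epithelial adhesion molecule, had 38, 161 and 232 counts (1.94 and 2.33, edgeR unadjusted p = 0.00337, adjusted p = 0.757). ST14, a membrane protease, had 12, 39 and 33, and the splicing factor ESRP1 3, 14 and 15. ELF3, an epithelial transcription factor, had 57, 14 and 21 counts (-1.97 and -1.57), and the keratin KRT7 had 81, 23 and 49 (-1.82 and -0.92), lowest in library 1 as CDH1 was. Of 28 mesenchymal genes tested, 5 were higher and 12 lower in both, with medians of -0.13 and -0.35. At least 2-fold lower in both were ITGB3 (68, 32 and 21 counts) and ITGA5 (6895, 2738 and 3881), integrin subunits, the protease gene MMP9 (289, 145 and 141) and S100A4 (888, 455 and 464), and at least 2-fold higher in both were ACTA2, the smooth muscle actin (47, 114 and 249), COL3A1 (19, 67 and 94) and POSTN. POSTN, which encodes the matrix protein periostin, had 0, 22 and 30 counts. Set against a floor of 3 counts in the control, POSTN was 6.89-fold higher in library 1 and 8.56-fold higher in library 2. These 2 ratios leave out the counting error of the knockdown counts. POSTN and ESRP1 passed the filter on low counts only through the knockdown libraries. Over all tested genes, 1.68% were at least 2-fold lower in both and 3.75% higher. WNT5A (55, 42 and 10 counts) was lowest in library 2, as VIM was. With edgeR 0 genes of either list passed, and DESeq2 called 0. An unadjusted edgeR p under 0.05 was found for 3 of 30 epithelial and 8 of 28 mesenchymal genes, POSTN among them. Of all tested genes, 4.88% had one. Both lists were chosen with earlier results of these data known, so these shares are no test of the lists.

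Other intermediate filament genes and vimentin linkers lay on both sides of the control. NEFM, a neurofilament subunit, had 32, 102 and 136 counts (log2 changes 1.53 and 1.80), and its relative NEFH 329, 972 and 658 (1.47 and 0.77). NES, which encodes nestin, a filament that assembles with vimentin, had 623, 1560 and 916 counts, and INA, a neuronal filament gene, 1088, 792 and 561. Of the 13 genes tested in this list, VIM-AS1 among them, 5 were higher and 6 lower in both, and the medians were -0.17 and -0.24. With edgeR 0 passed, 2 of 13 had an unadjusted p under 0.05 (4.88% of all tested genes), and DESeq2 called 0.

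**Figure D4:**
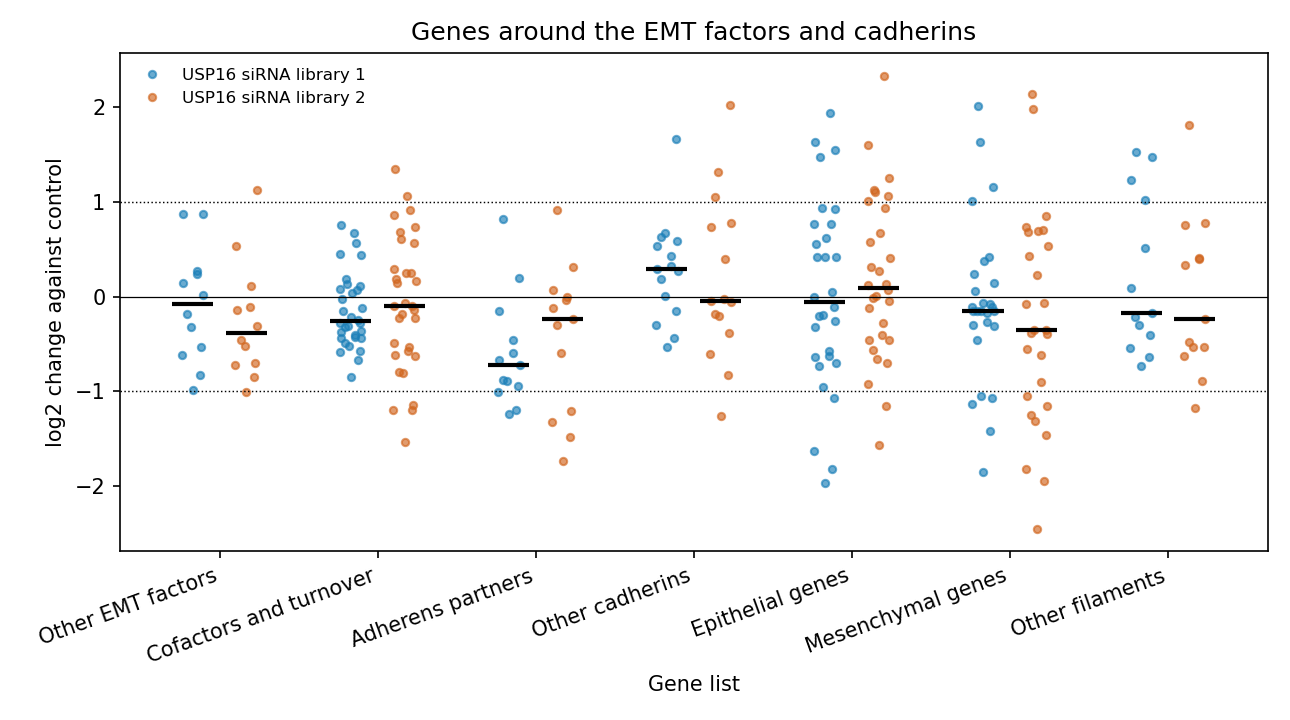
Log2 change against the control of every tested gene of 7 lists in knockdown library 1 (blue) and knockdown library 2 (orange); black bars are medians, dotted lines mark 2-fold, and POSTN, at 0 in the control, is left out. Most lists straddle 0 in both libraries, and the adherens junction partners have the lowest median in library 1, at -0.72.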

How the data were processed

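The deposited files hold raw whole-number counts of reads per gene, 1 file per library, per the file headers and the values. HISAT2 2.0.4, StringTie 1.3.0 and the build hg38 are named in the submitters' processing notes without a role, and the sources used here do not give the counting method. Libraries were made with an mRNA kit, per the labels' protocols. The second knockdown file has the number 6 in its column header where its label has 2, and was used as labelled. The totals were 14007161, 13956382 and 15071179 counts.

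Members and gene lists were chosen with earlier results of these data known. Counts were filtered with filterByExpr, scaled by TMM and tested with the quasi-likelihood test of edgeR 4.0.16 in R 4.3.3 over all genes, calling adjusted p-values (Benjamini-Hochberg) under 0.05. The lone control takes its spread from the knockdown libraries. Log2 changes used CPM with a prior count of 2. DESeq2 1.42.0, other filters, size factors and prior counts were alternatives. The edgeR step was tested on simulated data. GENCODE 29 gave positions and lengths for 98.5% of genes. Named beyond the members were up to 4 genes per list with a mean of at least 20 counts and the largest mean absolute log2 change, 3 catenins, and the 3 nearest genes of 3 members. Genes named for another reason, such as those 2-fold in both libraries, NKX2-1, SNAI3 and ZEB2-AS1, were chosen after their values were seen. Of the genes that the naming rule gives, 1 is not reported here.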

Additional observations from a re-analysis of the deposited data

How the results depend on the processing

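The mean log2 change of each member moved by less than its SD under 4 alternatives (no filter, median-ratio size factors, prior counts of 0.5 and 10), and 0 of the members tested passed with edgeR or DESeq2 in the settings that allow a test. The member counts at 2-fold were less stable: the 1 lower member, TWIST2, was lost (0 members) with a minimum mean of 100 counts and with a prior count of 10, its library 1 change ranging from -1.02 to -0.97, and either knockdown library alone gave 2 lower members. Between the single libraries VIM ranged from -1.56 to -0.15, and SNAI2 (-0.46 to 0.22) and CDH2 (-0.19 to 0.98) changed sign. With a minimum mean of 100 counts SNAI2, ZEB2, CDH1 and CDH2 were not tested. The log2 change of SNAI1 in library 2 was 0.01 with that minimum and -0.06 to -0.04 under the other settings. Over all genes, edgeR called 0 higher and 3 lower, compared with 40 and 30 when low counts were not filtered, 1 lower with a minimum mean of 100 counts, and 7 and 6 with DESeq2. The 2-fold counts of 649 higher and 290 lower became 1071 and 673 with no filter, 170 and 91 with the minimum mean of 100 counts, and 286 and 178 with a prior count of 10. Leaving out 1 knockdown library gave 1219 to 1718 higher and 959 to 1551 lower genes. The cause of these shifts was not tested. No paired analysis was possible because there was 1 control library. Leaving out 1 knockdown library left no residual degree of freedom, so those values have no test. Depth limits CDH2, SNAI2 and ZEB2, each with at most 46 counts in a library.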
